A study of Homo sapiens with 5 samples.

Results

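The Mediator complex was examined in TF-1 cells, a human AML cell line, after CRISPR/Cas9 knockout of *MTSS1*. Its members were taken as the protein-coding genes of the count table named *MED* followed by a number, with the paralogs whose names end in L, together with *CDK8*, *CDK19*, and *CCNC*. This gave 33 of the 27328 genes in the table, of which 31 had enough counts to be tested. All 5 libraries came from TF-1 cells transduced with a lentiviral vector that carries Cas9 and an sgRNA, and each was made from a pool of 4 single-cell clones. The 2 control pools, sgCtrl pool 1 and sgCtrl pool 2, carried an sgRNA against the *Renilla luciferase* gene, and the 3 knockout pools carried sgRNAs against *MTSS1*, namely sgMTSS1_1 in knockout pool 1, sgMTSS1_2 in pool 2, and sgMTSS1_3 in pool 3. A replicate was therefore a pool, each knockout pool had its own sgRNA, and p-values measure the spread between such pools. The study dropped a further sgCtrl pool and the sgMTSS1_4 pool after a test for outliers, so this spread is that of the pools it kept. No treatment or time point distinguished the groups.

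Mediator is a large coactivator that sits between DNA-bound transcription factors and RNA polymerase II. Its head and middle modules contact the polymerase, its tail module is the main landing place of transcription factors, and MED14 is the backbone that joins them. A separable kinase module, made of CDK8 or CDK19 with cyclin C, MED12, and MED13, binds the core reversibly and limits its contact with the polymerase. *MED12*, *MED13*, and *CDK8* each have a paralog in vertebrates. In myeloid and erythroid cells, MED1 is known as the contact of GATA1 and of nuclear receptors, and the Mediator kinases have been studied as drug targets in AML.

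Total counts were 2849979 and 3408827 in the control and between 5442639 and 8854899 in the knockout pools, and depth therefore cannot be told apart from the condition. The make-up of the libraries also moved with the condition. Mitochondrially encoded genes took 13.9% and 8.63% of the counts in the control and 6.71% to 7.44% in the knockout pools, and ribosomal protein genes took 7.55% and 9.30% against 11.9% to 17.7%. Their part in the values given here was not tested. *MTSS1* mRNA was at 204 and 87.9 CPM (counts set to a common library size) in control pools 1 and 2 and at 104, 139, and 49.9 CPM in knockout pools 1 to 3, so its level overlapped between the groups and could not check the labels. Per the paper's methods, loss of the MTSS1 protein had been checked by immunoblot in the knockout clones that were pooled. *NDUFB9* overlaps *MTSS1* on the opposite strand. All 7 TF-1 markers looked at (*CD34*, *CD33*, *KIT*, *GATA1*, *GATA2*, *CSF2RB*, *EPOR*) were detected and tested. Of these, 0 were differentially expressed by edgeR, DESeq2, or limma-voom, against 5.18% of all tested genes in edgeR. Only *CD34* had an unadjusted p-value under 0.05 in edgeR. It was at 132 and 112 CPM in the control against 214, 345, and 168 CPM in the knockout pools, a log2-fold change of 0.99. In every knockout pool, *CD34*, *KIT*, and *CSF2RB* lay above both controls (22.2% of all tested genes) and *GATA1* below (19.2%). The groups overlapped in 3 markers. Of the markers of other cell types, epithelial *EPCAM* was at 0.542 CPM or less and fibroblast *COL1A1* at 0.696 CPM or less in every pool.

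Of the 31 tested Mediator genes, 1 changed. *MED16* was lower in the knockout pools, and 0 genes were higher (edgeR's quasi-likelihood test, log2-fold change beyond 1 in either direction at an adjusted p-value below 0.05). Among all 14391 tested genes, 1.01% were lower and 4.17% were higher by the same rule (5.18% in both directions together), so that the Mediator counts were near this background. Dropping the fold threshold gave the same counts, 1 lower and 0 higher. DESeq2 called 2 lower and 1 higher, against 2.49% and 7.52% of the 13554 genes it gave an adjusted p-value. limma-voom called 1 lower and 0 higher, against 0.862% and 3.54% of all tested genes. Unadjusted p-values fell below 0.05 for 4 higher and 3 lower Mediator genes, against 14.1% and 9.23% of all tested genes. Log2-fold changes had a median of −0.14 for the 31 genes and −0.032 for all tested genes, and 15 of the 31 had a positive value, against 48.3% of all tested genes. The sign of the Mediator median depended on the fit, with 0.19 in limma-voom, 0.083 with no filter on low counts (where the median of all genes moved alike, to 0.11), and 0.091 without control pool 2. In bulk RNA, fewer cells of a kind and less RNA per cell cannot be told apart.

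The Mediator genes together took 0.136% and 0.189% of the counts in control pools 1 and 2 against 0.125%, 0.166%, and 0.156% in knockout pools 1 to 3. The groups overlapped. The sums over the 33 genes were 1212 and 1920 CPM in the control against 1433, 1631, and 1570 CPM in the knockout pools. Most of the gap between the control pools came from *MED24*. Without this gene the sums were 1168 and 1324 CPM against 1236, 1286, and 1244 CPM, all 3 knockout pools lying between the control pools.

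**Figure D1:**
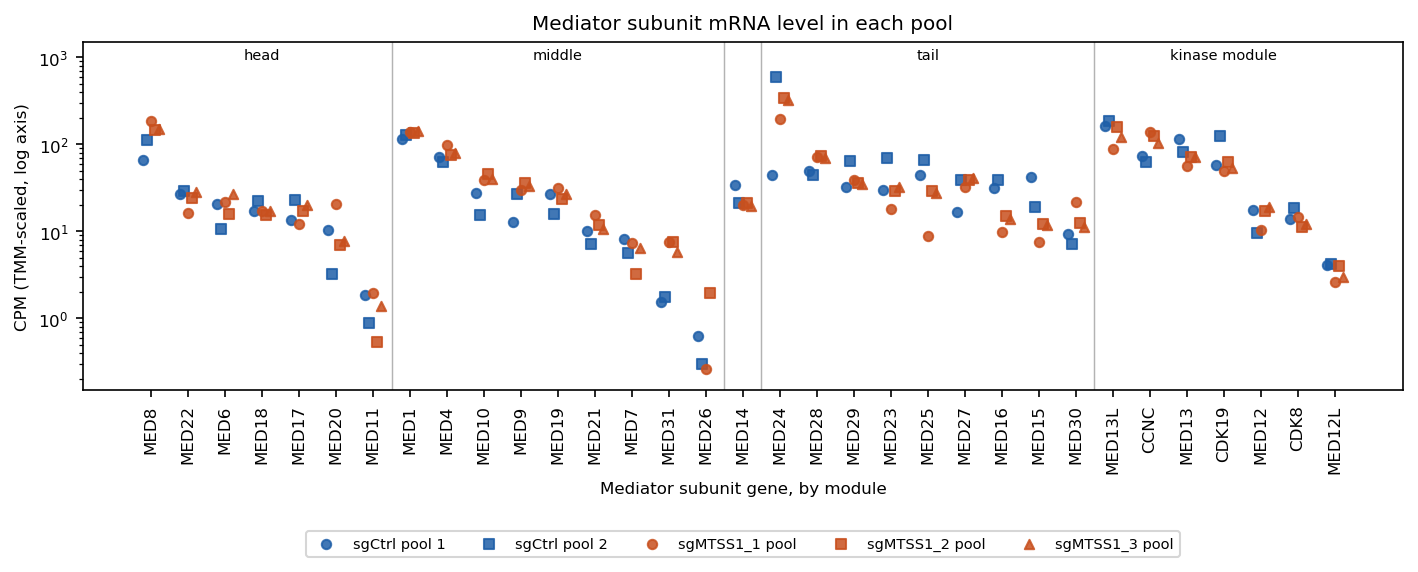
Level of each of the 33 Mediator genes in CPM (log axis) by module, with 1 point for each pool, controls in blue and knockouts in orange; the unlabelled column between middle and tail is the scaffold *MED14*. *MED16*, *MED15*, and *MED25* lie lower and *MED31* higher in all knockout pools, the control pools of *MED24* lie far apart, and the value in knockout pool 3 of *MED26* is 0 and is not drawn.

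The groups overlapped in 15 of the 31 genes. In 10 genes every knockout pool was above both control pools, as in 22.2% of all tested genes, and in 6 genes every knockout pool was below both, as in 19.2%. The 10 genes were *MED1*, *MED4*, *MED8*, *MED9*, *MED10*, *MED21*, *MED28*, *MED30*, *MED31*, and *CCNC*. The 6 genes were *MED13*, *MED13L*, *MED12L*, *MED15*, *MED16*, and *MED25*. This balance depended on the scaling. With library size alone in place of TMM factors, 6 genes lay above (17.9% of all tested genes) and 11 below (23%), while the median of all tested genes moved from −0.032 to −0.17. With control pool 1 left out, 14 lay above (38.4%) and 14 below (36.5%).

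The 4 lowest log2-fold changes were all in the tail, the module that activators contact. *MED16* (ENSG00000175221; GRCh38 chromosome 19, 867630 to 893218, minus strand) encodes a tail subunit known as a contact of the stress-response factor NFE2L2. It was at 31.3 and 39.0 CPM in control pools 1 and 2 against 9.86, 15.2, and 13.9 CPM in knockout pools 1 to 3. Both control pools lay above every knockout pool, with means of 35.2 ± 5.50 CPM (SD, n = 2) and 13.0 ± 2.78 CPM (SD, n = 3). With a log2-fold change of −1.44 and a standard error of 0.33, the level fell 2.71-fold, which passed edgeR's quasi-likelihood test after Benjamini-Hochberg adjustment (adjusted p = 0.039). The log2-fold change of *MED16* kept its sign in 17 of 17 other fits, between −1.58 and −1.24, and passed the test in 12. It did not pass with control pool 2 or knockout pool 1, 2, or 3 left out, where adjusted p was 0.085, 0.113, 0.090, and 0.133 in edgeR, nor with a replicate block and offsets for GC content and length together, where it was 0.072. The last 255 bases of *MED16* overlap *CFD* on the opposite strand, and the use of strand in counting is not given in the sources used here. With either control pool left out, here and for other genes, the control is 1 library that is assumed to vary like the knockout pools. *CFD* itself had a log2-fold change of 0.13.

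*MED15* (ENSG00000099917; chromosome 22, 20495913 to 20587632, plus strand) encodes the tail subunit contacted by sterol-response factors and SMADs. It was at 42.5 and 19.1 CPM in control pools 1 and 2 against 7.52, 12.1, and 11.8 CPM in knockout pools 1 to 3. The groups did not overlap, although the control pools lay far apart. The log2-fold change of *MED15* was −1.56 ± 0.41 (SE; adjusted p = 0.060 in edgeR), which did not pass the test. It passed in 5 of 17 other fits, among them DESeq2 (adjusted p = 0.016), and was −0.86 without control pool 1. There are 8 pseudogenes named after *MED15*, so its count is uncertain.

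*MED31* (ENSG00000108590; chromosome 17, 6643311 to 6651634, minus strand) encodes a small, highly conserved middle subunit. Its counts were 5 and 6 in control pools 1 and 2 against 58, 42, and 33 in knockout pools 1 to 3, or 1.56 and 1.79 CPM against 7.52, 7.58, and 5.74 CPM. Every knockout pool was above both controls, at a depth where 3 counts correspond to 0.389 to 0.938 CPM. The log2-fold change of *MED31*, 2.04 ± 0.51 (SE; adjusted p = 0.051 in edgeR), was the highest of the 31 genes and lay just outside the threshold. It passed in 5 of 16 other fits, among them DESeq2 (adjusted p = 0.030), and could not be fitted with at least 10 counts required in every library. *TXNDC17*, on the opposite strand, overlaps 1231 bases of it and had a log2-fold change of 0.17.

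**Figure D2:**
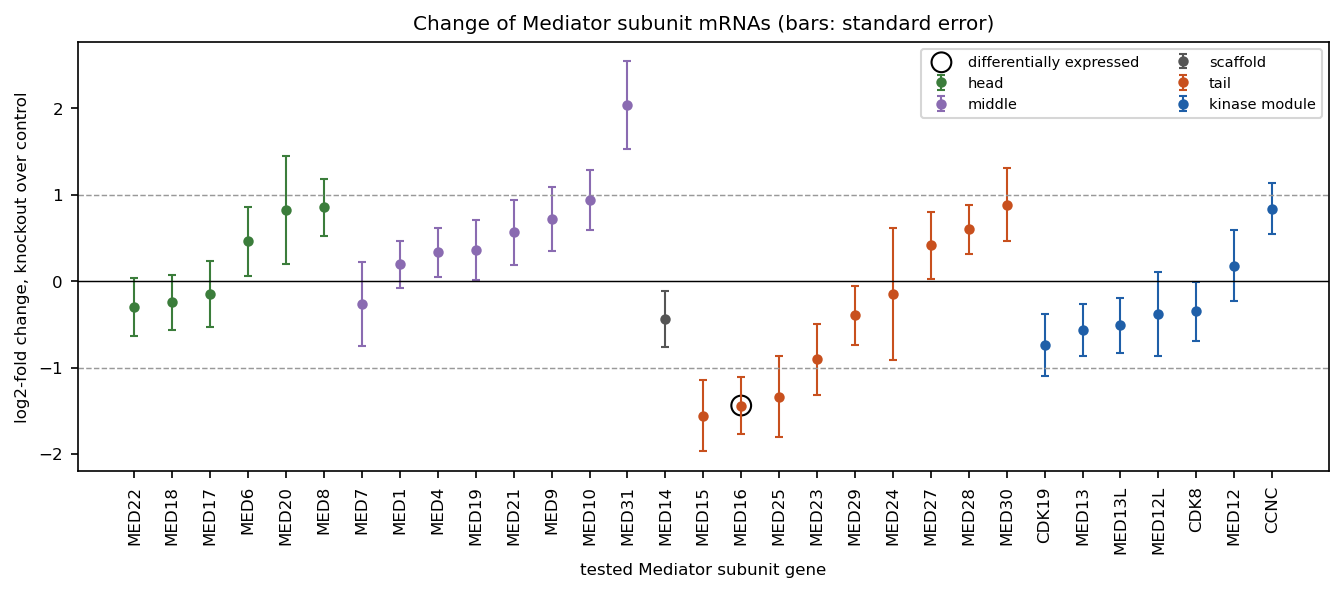
Log2-fold change, knockout over control, of the 31 tested Mediator genes by module, with bars of 1 standard error, dashed lines at the fold threshold of 1 and −1, and a circle around the differentially expressed gene. *MED16* is the circled gene, at −1.44; 7 of 8 middle genes are above 0 and 6 of 9 tail genes below.

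The promoters of these 3 genes, whose mRNAs gave the lowest adjusted p-values, are shown as the 250 bases before the RefSeq start (GRCh38.p14), on the gene's strand. Capitals mark the ETS core CCGGAA and the GC box GGGCGG, on either strand (TTCCGG and CCGCCC in reverse). ETS factors and SP1 are the families known to bind them.
MED16, chr19:893188-893437, minus strand: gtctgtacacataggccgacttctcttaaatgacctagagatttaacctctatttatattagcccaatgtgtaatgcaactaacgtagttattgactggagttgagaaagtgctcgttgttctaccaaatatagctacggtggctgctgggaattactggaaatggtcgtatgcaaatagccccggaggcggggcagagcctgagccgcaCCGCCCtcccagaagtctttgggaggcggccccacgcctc
MED15, chr22:20507360-20507609, plus strand: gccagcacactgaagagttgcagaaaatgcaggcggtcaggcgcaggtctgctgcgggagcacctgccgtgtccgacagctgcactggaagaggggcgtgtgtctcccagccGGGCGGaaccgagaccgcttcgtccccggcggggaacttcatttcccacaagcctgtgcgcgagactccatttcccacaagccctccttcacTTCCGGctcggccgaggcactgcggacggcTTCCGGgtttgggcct
MED31, chr17:6651606-6651855, minus strand: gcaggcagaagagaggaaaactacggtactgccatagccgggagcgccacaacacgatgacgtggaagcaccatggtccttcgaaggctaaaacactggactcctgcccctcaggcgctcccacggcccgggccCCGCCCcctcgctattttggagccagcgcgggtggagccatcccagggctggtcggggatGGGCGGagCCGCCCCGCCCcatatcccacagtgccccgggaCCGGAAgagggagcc
The *MED16* window held 0 matches to the ETS core and 1 to the GC box. *MED15* held 2 and 1, and *MED31* 1 and 4, counting overlapping matches separately. *MED15* has 2 RefSeq windows, and only the window at the lower coordinate is shown and counted here. RefSeq windows were found for 25 of the 33 genes. The ETS core occurred in 8 of these 25 genes, or 30% of their 30 windows, against 14.5% of all 35116 windows of the same length, and the GC box in 16 of 25 genes, or 56.7% of windows against 42.6%. A CCAAT box was in 10 genes, or 36.7% of windows against 32.0% of all windows. TATAAA was in 2 genes, or 6.67% against 10.7%, and the palindromic NRF1 site in 1, or 3.33% against 1.03%. These are matches of letters and not sites shown to be bound.

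Over the 9 tail genes the median log2-fold change was −0.40, and without control pool 2 it was 0.21. Values within the tail differed in sign. *MED15*, *MED16*, *MED23*, *MED24*, and *MED25* all had negative log2-fold changes, with a median of −1.34, and *MED27*, *MED28*, *MED29*, and *MED30*, which form the part of the tail nearest the head, had a median of 0.51. This division was looked at after the values had been seen and was not tested. *MED25* (ENSG00000104973; chromosome 19, 49818282 to 49840383, plus strand), the contact of ETV5 and ATF6, was at 44.1 and 65.9 CPM in control pools 1 and 2 against 8.82, 29.4, and 27.3 CPM in knockout pools 1 to 3. Its log2-fold change of −1.34 ± 0.47 (SE; adjusted p = 0.130 in edgeR) did not pass, and knockout pool 1 was the lowest. *MED25* passed in 2 of 17 other fits, those with a replicate block. *MED23*, through which ELK1 acts on its targets, had a value of −0.90 (adjusted p = 0.221 in edgeR), with control pools at 30.0 and 69.1 CPM and knockout pools at 18.03, 28.9, and 32.7 CPM. The groups overlapped because control pool 1 was below knockout pool 3. *MED23* was at −1.37 without control pool 1 (adjusted p = 0.049 in edgeR) and at −0.15 without control pool 2 (adjusted p = 0.847 in edgeR), so the choice of control pool decided its call. *MED28* was at 50.03 and 45.0 CPM against 71.5, 74.2, and 70.3 CPM, a log2-fold change of 0.60 that did not pass (adjusted p = 0.234 in edgeR). As for *MED15*, 8 pseudogenes are named after *MED28*, so its count is uncertain. *MED30* (ENSG00000164758; chromosome 8, 117520713 to 117540262, plus strand) was at 9.38 and 7.15 CPM against 21.9, 12.5, and 11.3 CPM, with a log2-fold change of 0.89 (adjusted p = 0.247 in edgeR). *MED27* and *MED29*, at 0.41 and −0.40, overlapped between the groups.

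*MED24* (ENSG00000008838; chromosome 17, 40019097 to 40061215, minus strand), a tail subunit bound to MED16 and MED23, had the highest mean CPM of the tested Mediator genes. It was at 44.4 CPM in control pool 1 and 596 CPM in control pool 2, a 13.4-fold gap that exceeds that of 99.6% of all tested genes. The knockout pools, at 197, 345, and 326 CPM, lay between them. The log2-fold change of *MED24* was −0.15 with a standard error of 0.77 (adjusted p = 0.932 in edgeR). It was −1.03 without control pool 1 and 2.73 without control pool 2, where it passed the test (adjusted p = 0.015 in edgeR). Its sign also turned with all pools kept, at 0.79 in limma-voom. *THRA*, which overlaps the first part of *MED24* on the opposite strand, was at 42.8 and 94.2 CPM against 29.1, 43.9, and 43.0 CPM, and its control pools were 2.20-fold apart.

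The middle module, which with the head surrounds the polymerase, had the highest median log2-fold change of the modules, 0.46 over 8 tested genes. Of these, 0 passed the test (5.18% of all tested genes), and 6 had every knockout pool above both controls (22.2% of all tested genes). DESeq2 called 1 of the 8 higher (7.52% of all genes in its test). In edgeR, 2 were higher at an unadjusted p-value under 0.05 (14.1% of all tested genes). *MED10* (ENSG00000133398; chromosome 5, 6371874 to 6378571, minus strand) was at 27.8 and 15.5 CPM against 38.65, 45.7, and 40.5 CPM, with 0.94 ± 0.34 (SE) on the log2 scale (adjusted p = 0.141 in edgeR). *MED10* was at 1.43 without control pool 1, where it passed (adjusted p = 0.041 in edgeR), and at 0.61 without control pool 2. *MED9* was at 12.8 and 27.1 CPM against 29.8, 36.1, and 33.1 CPM (0.72). *MED1*, the contact of GATA1, was at 114 and 128 CPM against 140, 135, and 141 CPM, with a log2-fold change of 0.19 and an SD of 3.06 CPM among the 3 knockout pools. *MED4* (0.33), *MED19* (0.36), and *MED21* (0.56) were also positive, and *MED7*, at −0.26, was the only tested middle gene below 0.

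*MED26*, which hands the polymerase over to elongation factors, was too low to be tested. It had 2 and 1 counts in the controls against 2, 11, and 0 in the knockouts. It is overlapped on its own strand by a pair of longer coding gene models, and how shared reads were counted is not given in the sources used here. The head had a median log2-fold change of 0.16 over 6 tested genes. Of these, 5 overlapped between the groups, as did 8433 of all 14391 tested genes. *MED8* was the exception, at 66.3 and 111 CPM against 185, 147, and 149 CPM, with 0.86 ± 0.33 (SE) on the log2 scale (adjusted p = 0.158 in edgeR). *MED20* (0.83), *MED6* (0.46), *MED17* (−0.14), *MED18* (−0.25), and *MED22* (−0.30) made up the rest. *MED20* was at 20.9 CPM in knockout pool 1 but 7.04 and 7.83 CPM in the others, with controls at 10.3 and 3.28 CPM. *MED11*, with 6 and 3 counts in the controls against 15, 3, and 8 in the knockouts, was not tested. The backbone *MED14* was at 34.1 and 21.2 CPM against 20.1, 21.5, and 19.5 CPM (−0.44), with 1 control pool inside the knockout range.

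In the kinase module, 0 of 7 genes passed the test (5.18% of all tested genes), and the median log2-fold change was −0.38. Every knockout pool lay above both controls in 1 gene and below both in 3, against 22.2% and 19.2% of all tested genes. In edgeR 1 gene, *CCNC*, was higher at an unadjusted p-value under 0.05 (14.1% of all tested genes). *CCNC* (ENSG00000112237; chromosome 6, 99542387 to 99568825, minus strand), cyclin C, which activates both kinases, was at 73.8 and 63.5 CPM in control pools 1 and 2 against 139, 125, and 104 CPM in knockout pools 1 to 3. The groups did not overlap, and the log2-fold change of *CCNC* was 0.84 ± 0.29 (SE; adjusted p = 0.126 in edgeR). *TSTD3*, which spans it on the opposite strand, had a value of 0.62. The kinases themselves had negative values. *CDK19* was at 57.8 and 126 CPM against 49.4, 63.0, and 53.1 CPM (−0.74, adjusted p = 0.254 in edgeR), and *CDK8* at 14.1 and 18.5 CPM against 14.7, 11.4, and 12.2 CPM (−0.35). Both overlapped between the groups, *CDK19* because of control pool 1, and *CDK19* was at −1.18 when that pool was left out, where it passed (adjusted p = 0.041 in edgeR). Without control pool 2 it was at −0.041 (adjusted p = 0.956 in edgeR).

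*MED13* and *MED13L*, which tether the kinase module to the core, were lower in every knockout pool without passing the test. *MED13* was at 116 and 81.4 CPM against 57.1, 70.9, and 72.2 CPM (−0.56, adjusted p = 0.290 in edgeR). *MED13L* was at 163 and 186 CPM against 89.2, 157, and 121 CPM (−0.51, adjusted p = 0.376 in edgeR). *MED12*, which activates the kinase, was at 17.8 and 9.54 CPM against 10.5, 17.0, and 19.1 CPM (0.18), and *MED12L*, the tested Mediator gene with the lowest mean CPM, at 4.06 and 4.17 CPM against 2.59, 3.97, and 2.96 CPM (−0.38).

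The balance within the paralog pairs did not separate the groups. *CDK8* made up 19.6% (95% exact binomial interval 14.6 to 25.3) and 12.8% (9.94 to 16.1) of the *CDK8* and *CDK19* counts in control pools 1 and 2 against 22.9%, 15.3%, and 18.7% in knockout pools 1 to 3. *MED13* made up 41.6% and 30.5% of its pair in the control against 39.0%, 31.1%, and 37.4% in the knockout pools. *MED12* made up 81.4% and 69.6% against 80.2%, 81.0%, and 86.6%. In each pair, at least 1 knockout pool lay between the control pools. Intervals cover counting error only.

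Transcript length went with the direction of the values. Across the 31 genes, the log2-fold change and the length of the canonical transcript had a Pearson's r of −0.42 and a Spearman's rho of −0.55, against −0.16 and −0.13 across 14353 tested genes with a length, all read in the same 5 libraries. Of the 14 Mediator genes with transcripts shorter than 2500 bases, 11 had positive values, with a median of 0.59. Of the 17 with longer ones, 13 had negative values, with a median of −0.38. Over all tested genes the medians were 0.088 and −0.095. GC content gave r of −0.44 and rho of −0.24 across the 31 genes, against 0.0012 and −0.022 across all tested genes. The split at 2500 bases was chosen after the values had been seen. With offsets for GC content and length, *MED16* (adjusted p = 0.027) and *MED31* (adjusted p = 0.048) passed the test in edgeR.

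**Figure D3:**
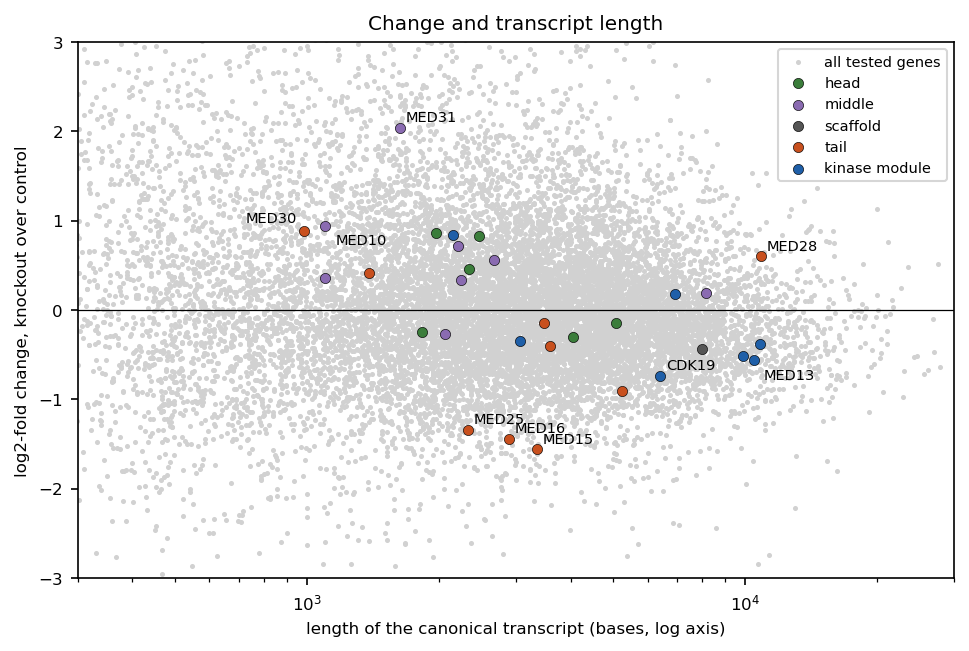
Log2-fold change, knockout over control, against the length of the canonical transcript (log axis) for the tested Mediator genes in colour by module and all tested genes in grey, of which 535 lie beyond the axes. Most Mediator genes shorter than 2500 bases lie above 0, and most longer ones below.

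Other parts of the transcription machinery were looked at by the same rule. Of 30 tested general transcription factors, which load the polymerase at promoters, 1 was higher and 0 were lower in edgeR. Over all tested genes, 4.17% were higher and 1.01% lower. At an unadjusted p-value under 0.05 in edgeR, 5 factors were higher and 5 lower, against 14.1% and 9.23% of all tested genes. DESeq2 called 2 higher and 1 lower, against 7.52% and 2.49% of the genes in its test. The median log2-fold change of the 30 factors was 0.034. *TAF9B*, a TFIID subunit and close paralog of *TAF9*, rose from 6.57 and 2.38 CPM in control pools 1 and 2 to 20.5, 19.0, and 17.2 CPM in knockout pools 1 to 3, with 2.08 ± 0.46 (SE) on the log2 scale (adjusted p = 0.036 in edgeR). It passed in 12 of 16 other fits, but in none of those without control pool 2 or a knockout pool, and 2 pseudogenes are named after it. *GTF2F1*, the large subunit of TFIIF, had the most negative value, −1.17, and did not pass (adjusted p = 0.094 in edgeR).

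Of 14 tested genes of the super elongation complex and P-TEFb, 0 passed in edgeR, DESeq2, or limma-voom. Of all tested genes, 5.18% passed in edgeR. At an unadjusted p-value under 0.05 in edgeR, 2 of the 14 genes were lower, against 9.23% of all tested genes. The median of the 14 was 0.09, between 0.63 for *EAF1* and −0.80 for *AFF1*. Of 17 transcription factors known to contact a Mediator subunit, 1 was higher and 0 were lower in edgeR. Among all tested genes these shares were 4.17% and 1.01%. At an unadjusted p-value under 0.05 in edgeR, 2 of the 17 were higher and 1 lower, against 14.1% and 9.23%. DESeq2 called 1 higher and 0 lower, against 7.52% and 2.49% of the genes in its test. *ELK1*, an ETS factor that contacts MED23, rose from 3.13 and 1.49 CPM in control pools 1 and 2 to 37.6, 20.6, and 24.9 CPM in knockout pools 1 to 3. Its log2-fold change was 3.58 ± 0.50 (SE; adjusted p = 0.0098 in edgeR), and it passed in 16 of 16 other fits. *ELK1* had only 10 and 5 counts in control pools 1 and 2, and 1 pseudogene is named after it. It was not tested where 10 counts were required in every library. *THRA*, at −0.83, had the most negative value of the 17.

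**Figure D4:**
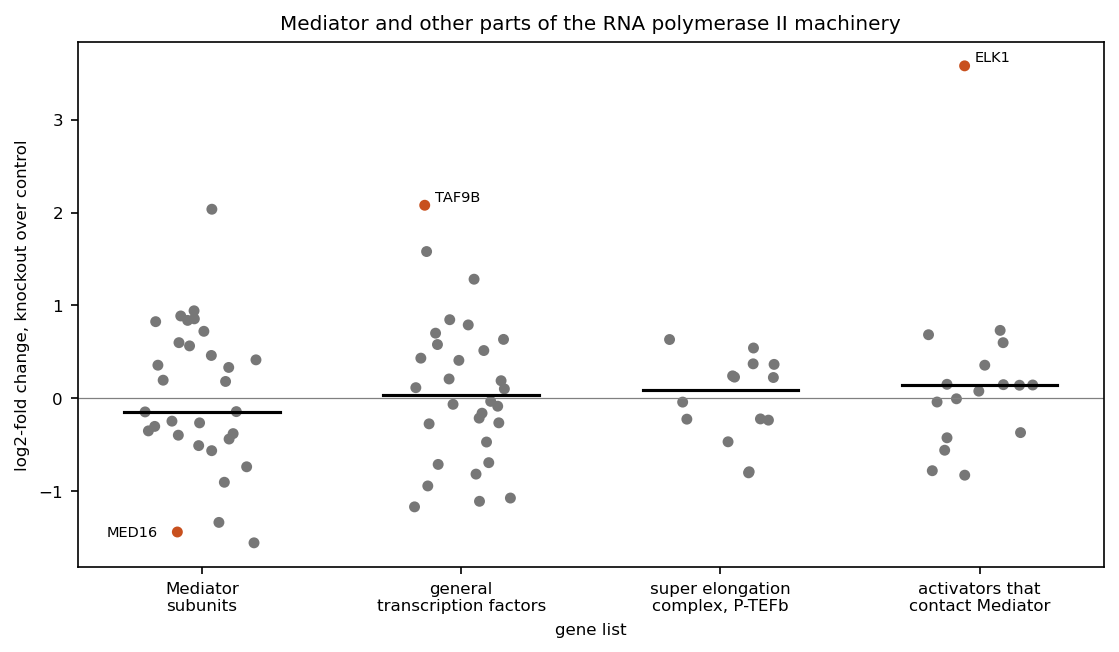
Log2-fold change, knockout over control, of each tested gene in the Mediator list and in 3 other lists of the transcription machinery, with the median as a bar and differentially expressed genes named in orange. *ELK1* is the highest point, at 3.58; the 4 medians lie between −0.14 and 0.14.

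Several Mediator genes start back to back with another gene. A coding gene starts within 1000 bases on the opposite strand for 10 of the 33 genes, and both genes were tested in 7 of these pairs, of which 2 had the same sign. *RPL7A*, a ribosomal protein gene that starts 87 bases from *MED22*, was at 268 and 112 CPM in the control against 2242, 860, and 1184 CPM in the knockout pools, a log2-fold change of 2.91 (adjusted p = 0.023 in edgeR) against −0.30 for *MED22*. There are 80 pseudogenes named after *RPL7A*, so its count is uncertain. *KLHL22*, an adaptor of a ubiquitin ligase, starts 69 bases from *MED15* in GENCODE and rose from 5.94 and 5.36 CPM to 12.8, 20.9, and 20.5 CPM, a log2-fold change of 1.67 (adjusted p = 0.046 in edgeR) against −1.56 for *MED15*. It passed in 7 of 17 other fits, and the RefSeq starts of *MED15* lie at least 11815 bases away. Among the other partners were *TMX2* (−0.95) with *MED19*, *PAF1* (0.51) with *MED29*, *BYSL* (0.44) with *MED20*, and *TAF1D* (0.40) with *MED17*.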

How the data were processed

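RNA-seq counts were analysed for 2 control and 3 *MTSS1* knockout pools. Per the paper's methods and the submitters' processing notes, the authors made QuantSeq 3′ libraries, which count transcript ends, aligned reads to GRCh38 with HISAT2 2.1.0, and deposited raw counts per Ensembl gene without normalization. The counting program, its use of strand, and the handling of duplicates are not given in the sources used here, and removal of reads that map to several places lowers counts of genes with near-identical copies. Groups came from the sample labels.

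Counts were tested in R 4.3.3 with edgeR 4.0.16 (quasi-likelihood F test on condition, TMM factors, filterByExpr with a minimum count of 10), over all 14391 genes kept of 27328, with Benjamini-Hochberg adjustment over these. CPM were scaled by the TMM factors and the totals of kept genes. Differentially expressed genes were those beyond a log2-fold change of 1 in either direction at an adjusted p-value below 0.05. Standard errors follow from the fold change and its F statistic. The biological coefficient of variation was 32.2%, and 3 counts corresponded to 0.389 to 0.938 CPM. Intervals and this limit cover counting error only. Gene names, positions, and transcripts came from GENCODE 44, promoters from RefSeq.

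The alternatives were DESeq2 1.42.0, limma-voom (limma 3.58.1), robust estimation, other factors and filters, thinning, a replicate block, offsets for GC content and length (mgcv 1.9.3), a threshold of 0.1, and each replicate left out. The fit was tested on simulated data. Members and lists were chosen with earlier results of these data known. Values are named for every member called, the 3 highest and 3 lowest log2-fold changes, *MED15*, *MED16*, *MED31*, the kinase module, genes too low to test, the highest and lowest by CPM, and, of other lists, called genes and extremes. Other members have log2-fold changes, some with levels chosen after their values were seen. A few genes of these lists are not reported here.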

Additional observations from a re-analysis of the deposited data

How the results depend on the processing

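Of 526 member values under the alternatives, 492 kept their direction and their side of the threshold, and 25 of 31 genes never changed sign. Low counts limit *MED31*, *MED12L*, *MED11*, and *MED26* most. DESeq2 called 1 Mediator gene higher and 2 lower, 3 with no fold threshold, 2 higher and 1 lower general transcription factors, and 1357 genes in all. Robust estimation, thinning, and GC and length offsets each called 1 higher (2 with no fold threshold). In all, 605, 581, and 734 genes were higher in these fits, and the offsets gave a kinase median of −0.24. Library size alone called 2 lower (2 with no fold threshold), of 232 lower genes in all. Its middle median was 0.30, with 6 genes above and 11 below both controls (17.9% and 23% of all tested genes). Counts above and below both controls were added as alternatives after seeing the data. No filter called 1 higher and 2 lower (3 with no fold threshold), 2 general transcription factors higher, and 1374 genes, with medians of 0.083 (members), 0.71 (middle), −0.25 (tail), and −0.23 (kinase), *MED24* at 0.0081, and *MED17* at 0.0063. With 10 counts in every library, 0 general transcription factors and 0 activators were higher, since *TAF9B* and *ELK1* were no longer tested. At a threshold of 0.1, 1 was higher and 2 lower (3 with no fold threshold), with 2 higher and 3 lower general transcription factors and 1531 genes. limma-voom gave a member median of 0.19 and *MED24* at 0.79.

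The replicate numbers 1 and 2 occur in both groups. Across genes, the difference between control pools 1 and 2 correlated with that between knockout pools 1 and 2 with r of 0.17, and no label ties same-numbered pools, so the numbers were not taken as pairs. With the replicate block, 3 Mediator genes (*MED15*, *MED16*, *MED25*) were lower (3 with no fold threshold), of 200 lower and 894 higher genes in all, 2 general transcription factors higher and 1 lower, the member median was 0.016, and *MED24* was at 0.66. With the replicate block and offsets for GC content and length, the last 2 were 0.18 and 0.73, 2 general transcription factors were higher, and *MED25* was the 1 Mediator gene called.

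Leaving out 1 pool at a time gave 0 to 1 Mediator genes higher, 0 to 3 lower, and 0 to 4 with no fold threshold. It gave 111 (without knockout pool 1) to 1349 (without control pool 1) genes in all, 0 to 1 higher and 0 to 3 lower general transcription factors, and 0 to 1 lower activators. Member medians ran from −0.24 to 0.091, middle from 0.31 to 0.62, tail from −0.86 to 0.21, and kinase from −0.53 to −0.17, with 10 to 14 genes above and 7 to 14 below both controls, against 24.7% to 38.4% and 22.6% to 36.5% of all tested genes. Log2-fold changes that turned sign ran from −0.51 to 0.055 (*MED7*), −0.47 to 0.32 (*MED17*), −1.03 to 2.73 (*MED24*), −0.058 to 1.18 (*MED27*), −0.80 to 0.21 (*MED29*), −0.17 to 0.71 (*MED12*), and −1.04 to 0.16 (*MTSS1*). They turned without control pool 1 for *MED7*, *MED27*, and *MTSS1*, without control pool 2 for *MED29*, *MED24*, *MED17*, and *MED12*, without knockout pool 1 for *MED24* and *MED17*, and without knockout pool 2 for *MED7*. The causes were not tested.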
